A study of Homo sapiens with 12 samples.

Results

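The genes described here encode 10 surface or secreted proteins through which a B-lineage cell speaks to T cells: CD274 (PD-L1), PDCD1LG2 (PD-L2), CD80, CD86, CD58, CD200, ICOSLG, LGALS1 (galectin-1), LGALS9 (galectin-9) and TNFRSF14 (HVEM). They were chosen by gene symbol, as immune checkpoint and costimulatory ligands, and each symbol matched a single row among the 26210 genes of the deposited expression table. RNA-seq was available for 12 libraries, with 2 libraries for each of 6 conditions. The classical Hodgkin lymphoma (cHL) lines were L428, L1236 and KM-H2, all untreated and grown in IMDM. The control lines were Namalwa, from Burkitt's lymphoma, and Reh, from Pro-B lymphoblastic leukemia, both untreated and grown in RPMI. The remaining condition was Reh treated with PMA, a phorbol ester that activates protein kinase C, at 2 ng/ml. The study treated Reh for more than 1 duration, and which of them these libraries had is not given in the sources used here. Each condition is a single cell line, so it stands for that line and not for a tumour type, and the culture medium and the cHL origin of a line cannot be told apart. The libraries were made from total RNA after removal of ribosomal RNA, and their values were FPKM (fragments per kilobase of transcript scaled to the mapped fragments of the library), so that levels can be set side by side between genes.

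A T cell that meets its antigen also reads a further set of signals from the cell that presents it. CD80 and CD86 bind CD28 to activate the T cell or CTLA4 to restrain it, while CD274 and PDCD1LG2 bind PDCD1 (PD-1) and restrain it. ICOSLG binds ICOS and CD58 binds CD2, both of which help activation, whereas CD200 restrains myeloid and lymphoid cells through CD200R1. The galectins bind sugars on T cell surface proteins, and TNFRSF14 is a receptor that also acts as a ligand for BTLA and CD160. In classical Hodgkin lymphoma the tumour cells are few and lie among many T cells, and gains of the short arm of chromosome 9 that hold JAK2, CD274 and PDCD1LG2 are a known feature of the disease.

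The libraries fell into kinds that the labels do not name. SNORD95, a small nucleolar RNA, was listed at 0 FPKM in 7 libraries and stood between 16925 and 132676 FPKM in the other 5, which were both PMA-treated Reh libraries and 1 library of each cHL line. RPS27, a ribosomal protein gene that every cell uses, stood between 0.357 and 2.75 FPKM in 4 of those 5 libraries, the exception being KM-H2, and between 3981 and 10813 FPKM elsewhere. Both untreated Reh libraries were of the SNORD95-at-0 kind and both PMA-treated ones were not, so within Reh the treatment and the kind of library cannot be told apart. Since a gene that every cell uses can be near 0 in some libraries, a ligand gene at 0 is only said to be listed at 0. The table gives no read counts, so the depth behind each value is unknown. The log2 values of all genes in the 2 libraries of a condition correlated with r of 0.906 to 0.985, the cHL lines being lowest. The labelled cell types were checked against their markers. The summed FPKM of 7 B-lineage genes was 924 to 1407 in Reh, treated Reh and Namalwa but 0.773 to 37.2 in the cHL lines, where few or none of the 7 exceeded 1 FPKM in both libraries, while 5 Hodgkin markers such as TNFRSF8 (CD30) summed to 132 to 1527 in the cHL lines and 1.89 to 60.7 elsewhere. TNFRSF8 itself measured 19.1 to 63.7 FPKM in the cHL lines and at most 0.505 elsewhere, whereas CSF1R of the same list was at most 2.05 in the cHL lines and 11.8 and 11.2 in treated Reh. KM-H2 also held T cell markers, summing to 17.1 to 25.5 FPKM, of which CD3D and CD3G exceeded 1 FPKM in both libraries whereas CD8A was listed at 0 in both. The sum of 6 myeloid markers was 31.5 to 37.3 FPKM in Reh, mostly MPO, 15.5 to 24.1 in L428, 16.0 to 17.1 in KM-H2, 11.4 to 15.5 in treated Reh and at most 1.12 in Namalwa and L1236. The part of these T cell and myeloid markers in the ligand values was not tested.

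CD274 and PDCD1LG2 were expressed in the 3 cHL lines and stayed under 1 FPKM in the other 6 libraries. In L1236, CD274 measured 29.9 and 33.1 FPKM in the 2 libraries, which are called library 0 and library 1 after the suffix of their columns. L428 had 3.74 and 7.28 FPKM and KM-H2 had 2.48 and 2.63 FPKM, whereas Reh had 0.232 and 0.0978, treated Reh 0.213 and 0.348, and Namalwa 0.0642 and 0.165. Every cHL library thus lay above every library of Reh, treated Reh and Namalwa. PDCD1LG2, the partner ligand, measured 33.8 and 55.6 FPKM in L1236, 4.94 and 10.5 in L428, and 6.95 and 6.79 in KM-H2. In Reh it was 0.136 and 0.185 FPKM and in Namalwa 0.136 and 0.155, while both treated Reh libraries listed it at 0. Again the cHL libraries did not overlap with the others.

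The B7 pair CD80 and CD86 was also high in cHL but not absent from the controls. CD80 measured 39.5 and 67.1 FPKM in L1236, 20.8 and 29.1 in L428, and 6.03 and 10.1 in KM-H2. Namalwa had 6.85 and 6.90 FPKM, which fell between the 2 KM-H2 libraries, while Reh had 0.118 and 0.0401 and both treated Reh libraries listed CD80 at 0. CD86 ranged from 84.2 to 101 FPKM in L1236, from 30.1 to 41.7 in L428 and from 8.02 to 9.47 in KM-H2, against 3.31 to 4.28 in Namalwa, 0.0460 to 0.0936 in Reh and 0.0525 to 0.120 in treated Reh. For CD86 each cHL library lay above both Namalwa libraries.

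CD58, the adhesion ligand of CD2, was present in every library. It ranged from 88.8 to 129 FPKM in L1236, 60.8 to 87.0 in L428 and 30.8 to 37.5 in Reh, and KM-H2, with 16.8 in both libraries, lay below Reh and near treated Reh with 13.1 to 17.6. Namalwa was lowest with 3.68 to 3.80 FPKM. TNFRSF14 was the most even of the genes across the cHL lines, at 11.1 to 12.4 FPKM in L428, 11.9 to 12.8 in L1236 and 9.24 to 15.9 in KM-H2, above the 7.12 to 8.17 of Reh, the 2.78 to 3.09 of Namalwa and the 2.31 to 2.62 of treated Reh.

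CD200 and ICOSLG had their highest levels outside the cHL lines. CD200 measured 10.3 and 8.60 FPKM in Reh, 4.28 and 4.23 in treated Reh, 3.93 and 6.50 in L428, 3.88 and 4.66 in KM-H2, and 1.21 and 1.86 in L1236. In Namalwa it was listed at 0 in library 0 and at 0.0567 FPKM in library 1. ICOSLG was highest in treated Reh, with 20.1 and 20.5 FPKM, against 7.14 and 6.21 in untreated Reh, 8.46 and 5.09 in KM-H2 and 4.89 and 3.11 in Namalwa. It was close to absent from L428, with 0.301 and 0.374 FPKM, and was listed at 0 in both L1236 libraries.

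The galectins differed widely between lines. LGALS1 reached 683 and 911 FPKM in KM-H2, 602 and 463 in L428, 171 and 254 in L1236 and 516 and 139 in treated Reh, against 36.7 and 20.7 in Reh and 0.533 and 3.68 in Namalwa. The 2 treated libraries were thus far apart, though both lay above both untreated ones. LGALS9 ranged from 82.0 to 153 FPKM in L1236 and from 30.9 to 33.1 in Reh, measured 6.87 to 13.2 in treated Reh, and stayed at or under 1.37 FPKM in L428, KM-H2 and Namalwa. Reads of LGALS9 could be shared with its near-identical copies LGALS9B and LGALS9C, which the table lists at 0 and at no more than 0.169 FPKM in any library.

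**Figure D1:**
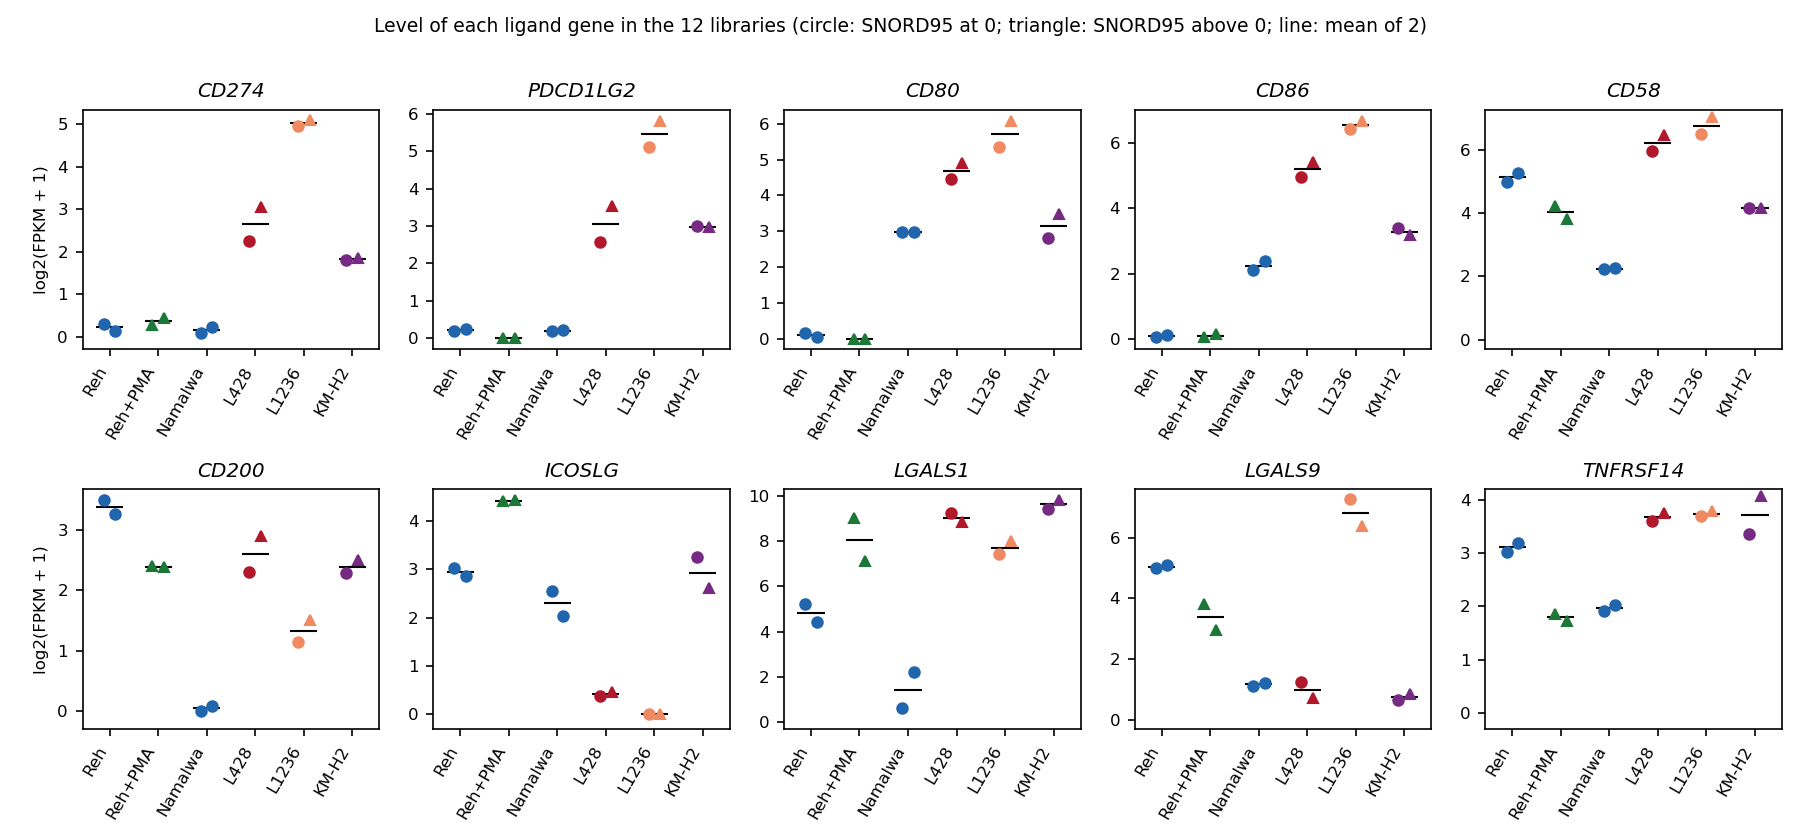
FPKM of each of the 10 ligand genes as log2(FPKM + 1) on the vertical axis, for the 2 libraries of each condition on the horizontal axis. Circles are the 7 libraries with SNORD95 listed at 0, triangles the other 5, and the line is the mean of the 2 libraries. CD274 and PDCD1LG2 rise above 1 FPKM in the 3 cHL lines, LGALS9 is high in L1236 and Reh, and ICOSLG peaks in treated Reh.

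Where these genes lie, in GRCh37 coordinates from the GENCODE annotation, is as follows. CD274 (chr9:5450503-5470566) and PDCD1LG2 (chr9:5510531-5571282) are neighbours on the plus strand with 39964 bases between them. CD80 (chr3:119243140-119278461, minus strand), CD86 (chr3:121774209-121839986) and CD200 (chr3:112051194-112081659) share the long arm of chromosome 3. CD58 (chr1:117057156-117113661, minus strand) and TNFRSF14 (chr1:2487078-2496821) lie on chromosome 1, ICOSLG (chr21:45635265-45661329, minus strand) on chromosome 21, LGALS1 (chr22:38071643-38075809) on chromosome 22 and LGALS9 (chr17:25956824-25976586) on chromosome 17.

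The promoter sequences of CD274, CD80 and CD86 are shown because these genes were high together in the cHL lines. They were taken from the RefSeq promoter table, built on GRCh38.p14, which matched 8 of the 10 genes, and each was located by its sequence in GRCh37. Only bases upstream of the annotated start are printed, 5′ to 3′ on the strand of the gene, and for CD274 the last 39 of these, which lie in an annotated exon, were left out. Capitals mark matches on either strand to the interferon-stimulated response element (ISRE, GAAA followed by any 2 bases and GAAA), the interferon gamma-activated site (GAS, TTCNNNGAA), the AP-1 motif (TGANTCA) or the NF-kappaB motif.
CD274, chr9:5450292-5450502, plus strand: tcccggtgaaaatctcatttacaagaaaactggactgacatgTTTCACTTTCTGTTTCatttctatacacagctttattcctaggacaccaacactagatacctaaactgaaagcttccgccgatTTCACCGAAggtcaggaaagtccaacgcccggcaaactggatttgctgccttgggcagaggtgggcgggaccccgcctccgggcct
CD80, chr3:119278462-119278711, minus strand: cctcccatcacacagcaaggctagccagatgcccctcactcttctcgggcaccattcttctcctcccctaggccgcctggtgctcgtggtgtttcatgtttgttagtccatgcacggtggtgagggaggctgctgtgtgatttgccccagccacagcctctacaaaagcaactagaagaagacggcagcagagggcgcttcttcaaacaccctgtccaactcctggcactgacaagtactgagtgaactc
CD86 at its upstream start, chr3:121773959-121774208, plus strand: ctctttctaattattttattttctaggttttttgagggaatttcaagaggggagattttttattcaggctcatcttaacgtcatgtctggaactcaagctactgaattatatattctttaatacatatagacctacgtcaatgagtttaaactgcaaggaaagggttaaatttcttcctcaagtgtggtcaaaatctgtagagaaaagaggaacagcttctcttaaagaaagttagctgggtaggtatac
CD86 at its downstream start, chr3:121796381-121796630, plus strand: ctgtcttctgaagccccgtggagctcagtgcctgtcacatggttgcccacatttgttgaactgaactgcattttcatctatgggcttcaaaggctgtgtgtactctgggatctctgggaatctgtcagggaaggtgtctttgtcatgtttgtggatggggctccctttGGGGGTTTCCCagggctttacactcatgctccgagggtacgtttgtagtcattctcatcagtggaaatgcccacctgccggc

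The CD274 window held a pair of overlapping ISRE matches at positions -208 to -199 and -202 to -193 and a GAS match at -125 to -117, counted from the RefSeq start, which lies 39 bases beyond the end of the printed window. The downstream CD86 start held a pair of overlapping NF-kappaB matches at -82 to -73 and -81 to -72. None of these letters occurred in the CD80 window or at the upstream CD86 start. Over 35116 RefSeq promoters, windows of 250 bases held an ISRE match in 3.02%, a GAS match in 6.57%, an AP-1 match in 6.57% and an NF-kappaB match in 5.21%. A match is a stretch of letters only, and no binding was measured here.

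Each cHL line was then compared with the mean of Reh and Namalwa in limma, fitted to log2(FPKM + 1) over the 14679 genes that reached 1 FPKM in at least 2 libraries. All 10 ligand genes passed that filter, CD274 and PDCD1LG2 only through the cHL libraries in which they were high. A gene was called when its Benjamini-Hochberg adjusted p was under 0.05 and its difference at least 1 on the log2 scale, which understates the change of genes with low levels. The 3 comparisons share the same control libraries. The p-values measure the spread between duplicate libraries, which may be technical, since nothing says that the duplicates came from separate cultures.

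In L428, 7 of the 10 genes were called higher and 2 lower, where 16.2% of all genes tested were called higher and 13.8% lower. In L1236, 8 were called higher and 1 lower, against 15.7% and 13.3% of all genes. In KM-H2, 6 were called higher and 1 lower, against 16.8% and 13.5%. The median log2 difference of the 10 genes was 2.49 in L428, 3.94 in L1236 and 1.39 in KM-H2, beside medians of -0.01, -0.01 and 0 over all genes tested. These counts and medians are a description, since the 10 genes were chosen with earlier results of these data known. The higher calls of each line also include CD274 and PDCD1LG2, which passed the filter only through the cHL libraries. In the 7 libraries with SNORD95 at 0 the calls of the 10 genes in these 3 comparisons were the same except for TNFRSF14 in KM-H2, with 1 library left per cHL line that is assumed to vary like the control libraries. Between the cHL lines, 6 of the 10 genes were called between L1236 and L428, where 21.9% of all genes tested were, 4 between KM-H2 and L428, where 26.6% were, and 9 between KM-H2 and L1236, where 26.6% were. At least 1 of these 3 pairs was called in 9 of the 10 genes, as it was in 43.6% of all genes tested.

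The PD-1 ligands were called higher in each line, which is a description, since both passed the filter only through the cHL libraries. CD274 was higher by 2.46 ± 0.22 (SE, log2) in L428 (limma adjusted p = 2.05e-05), by 4.83 ± 0.22 in L1236 (adjusted p = 2.92e-07) and by 1.64 ± 0.22 in KM-H2 (adjusted p = 0.00026). PDCD1LG2 was higher by 2.84 ± 0.28 (adjusted p = 3.8e-05), 5.27 ± 0.28 (adjusted p = 6.73e-07) and 2.77 ± 0.28 (adjusted p = 4.15e-05) in the same lines. No fold is given for these genes because their control levels were too low to divide by. L1236 stood apart from the other cHL lines: its CD274 mean was 5.72-fold that of L428 (2.37 ± 0.25 on the log2 scale, adjusted p = 0.000115) and its PDCD1LG2 mean 5.79-fold (2.42 ± 0.32, adjusted p = 0.000447). L428 and KM-H2 did not differ by a call in either gene, with -0.82 ± 0.25 (adjusted p = 0.0318) for CD274, under the fold threshold, and -0.07 ± 0.32 (adjusted p = 0.909) for PDCD1LG2, as KM-H2 minus L428. Over the 12 libraries the log2 levels of CD274 and PDCD1LG2 had r = 0.977, which rests on 6 conditions and on lines at or near 0.

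CD80 and CD86 were called higher in all 3 lines as well. CD86 was higher than in the controls by 4.01 ± 0.19 in L428 (limma adjusted p = 4.95e-07), 5.37 ± 0.19 in L1236 (adjusted p = 8.29e-08) and 2.10 ± 0.19 in KM-H2 (adjusted p = 2.24e-05). CD80 was higher by 3.14 ± 0.27 (adjusted p = 1.49e-05), 4.17 ± 0.27 (adjusted p = 2.18e-06) and 1.60 ± 0.27 (adjusted p = 0.000995). The controls differed between themselves: Namalwa exceeded Reh by 2.87 ± 0.31 in CD80 (adjusted p = 0.000111) and by 2.16 ± 0.22 in CD86 (adjusted p = 8.59e-05). Against Namalwa alone, CD80 in KM-H2 was not called, at 0.16 ± 0.31 (adjusted p = 0.725), while CD86 was, at 1.03 ± 0.22 (adjusted p = 0.00529). Both genes had the same order of lines, L1236 above L428 above KM-H2, and each neighbouring pair of cHL lines was called.

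CD58 and TNFRSF14 had levels above 1 FPKM in every library, so folds could be formed. CD58 was 3.9-fold the control mean in L428 (2.52 ± 0.22, limma adjusted p = 1.82e-05) and 5.75-fold in L1236 (3.07 ± 0.22, adjusted p = 4.57e-06), and was not called in KM-H2, whose mean FPKM was 0.887 of the control mean while its log2 difference was 0.47 ± 0.22 (adjusted p = 0.112). KM-H2 lay between the controls in CD58, at -0.97 from Reh (adjusted p = 0.0125, under the fold threshold) and 1.91 from Namalwa (adjusted p = 0.000302). It lay below L428 by 2.05 ± 0.25 (adjusted p = 0.000238). TNFRSF14 was 2.22-fold the controls in L428 (1.13 ± 0.21, adjusted p = 0.00203), 2.34-fold in L1236 (1.20 ± 0.21, adjusted p = 0.00148) and 2.37-fold in KM-H2 (1.17 ± 0.21, adjusted p = 0.00158), and no pair of cHL lines was called. Against Reh alone TNFRSF14 was called in none of the 3 lines, at 0.56 in L428 (adjusted p = 0.0967), 0.63 in L1236 (adjusted p = 0.0677) and 0.61 in KM-H2 (adjusted p = 0.0728), so these calls turn on Namalwa. Against Reh alone CD58 was called in L428 (1.08, adjusted p = 0.00811) and L1236 (1.63, adjusted p = 0.000759). The KM-H2 call of TNFRSF14 rested on library 1 of that line: without it the difference was 0.81, under the fold threshold. The L428 call was lost with the kind of library as a covariate, at 0.97.

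The galectins divided the lines. LGALS1 was called higher in L428 (5.92 ± 0.57, limma adjusted p = 3.55e-05), L1236 (4.58 ± 0.57, adjusted p = 0.000177) and KM-H2 (6.50 ± 0.57, adjusted p = 1.79e-05). LGALS9 was called higher in L1236 (3.71 ± 0.31, adjusted p = 1.28e-05) and lower in L428 (-2.12 ± 0.31, adjusted p = 0.000487) and KM-H2 (-2.36 ± 0.31, adjusted p = 0.000238). L1236 exceeded Reh in LGALS9 by 1.78 (adjusted p = 0.00346), so its level was also above that of the higher control. The lower calls of L428 and KM-H2 turn on Reh, since Namalwa did not differ by a call from either line.

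ICOSLG was called lower in L428 (-2.20 ± 0.22, limma adjusted p = 4.55e-05) and L1236 (-2.62 ± 0.22, adjusted p = 1.38e-05), and was not called in KM-H2 (0.31 ± 0.22, adjusted p = 0.293). With the pseudocount of 1, CD200 was not called in any line, with 0.89 ± 0.21 in L428 (adjusted p = 0.00727), -0.38 ± 0.21 in L1236 (adjusted p = 0.175) and 0.68 ± 0.21 in KM-H2 (adjusted p = 0.0251). With a pseudocount of 0.1 it was called higher in L428 (2.24, adjusted p = 0.000461) and KM-H2 (1.99, adjusted p = 0.000896). Without library 0 of L428, CD200 in that line passed the fold threshold at 1.20 (adjusted p = 0.00382). The mean of the controls stands for neither of them in CD200, as Reh exceeded Namalwa by 3.34 on the log2 scale.

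**Figure D2:**
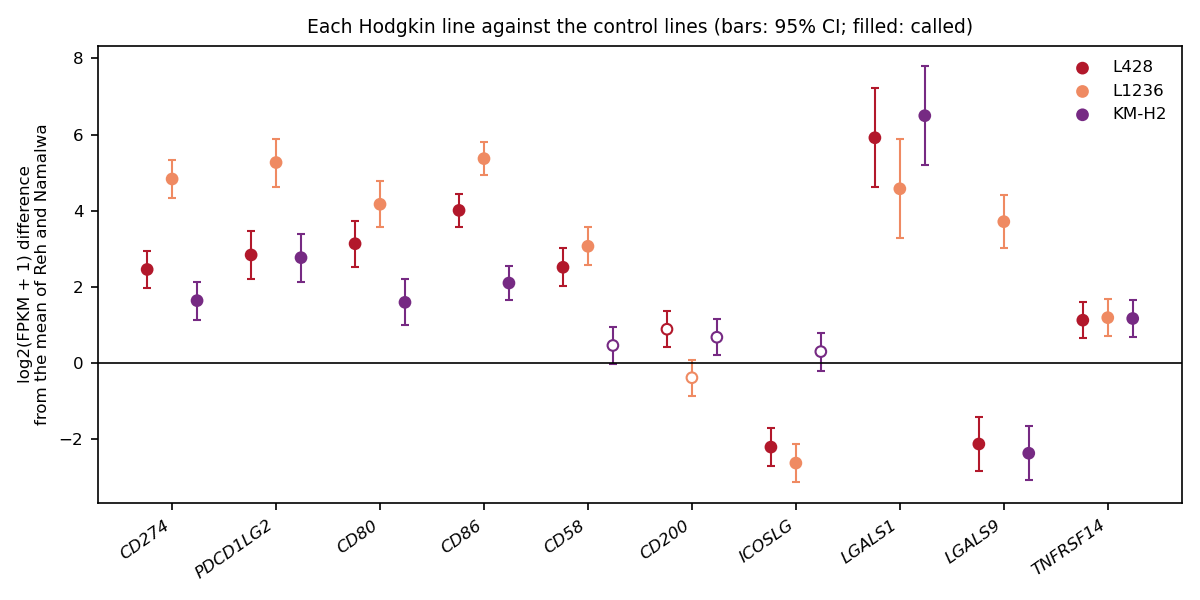
Difference in log2(FPKM + 1) of each cHL line from the mean of Reh and Namalwa on the vertical axis, for the 10 ligand genes on the horizontal axis. Bars are 95% confidence intervals, filled points were called and open points were not. LGALS9 is above 0 in L1236 and below 0 in L428 and KM-H2, and CD200 is open in all 3 lines at the pseudocount of 1.

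Taking each line as 1 unit, 3 cHL lines against 2 control lines, gives a test of the groups rather than of single lines. In limma on the 5 line means none of the 10 genes was called, and 0.545% of all genes tested were. At an unadjusted p under 0.05, 6 of the 10 genes and 1983 of all genes passed. The differences, with SE over lines, were 5.66 ± 1.10 for LGALS1 (adjusted p = 0.137), 3.83 ± 1.12 for CD86 (adjusted p = 0.261), 3.63 ± 0.87 for PDCD1LG2 (adjusted p = 0.199), 2.98 ± 0.99 for CD274 (adjusted p = 0.303) and -0.25 ± 2.19 for LGALS9 (adjusted p = 0.965). With the duplicate libraries counted as replicates, 8 of the 10 genes were called, where 24.5% of all genes tested were, a count that takes no account of the spread between lines. An exact permutation test of 3 lines against 2 cannot go below p = 0.1. CD274, PDCD1LG2, CD86, LGALS1 and TNFRSF14, 5 of the 10 genes, had all 6 cHL libraries above all 4 control libraries, as did 9.5% of all genes tested, and none had all of them below, as did 8.06%.

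Treated and untreated Reh differed by a call in 5 of these genes. ICOSLG and LGALS1 were called higher and CD58, LGALS9 and TNFRSF14 lower, which is 2 higher and 3 lower of 10, where 10.5% of all genes tested were called higher and 11.8% lower. The mean FPKM of ICOSLG was 3.04-fold that of untreated Reh (1.47 ± 0.26, limma adjusted p = 0.00292) and that of LGALS1 11.4-fold (3.24 ± 0.66, adjusted p = 0.00637). LGALS9 fell to 0.314 of its untreated mean (-1.64 ± 0.36, adjusted p = 0.00857), TNFRSF14 to 0.323 (-1.32 ± 0.24, adjusted p = 0.00402) and CD58 to 0.45 (-1.11 ± 0.25, adjusted p = 0.0107). CD200, at 0.449 of its untreated mean, had an adjusted p of 0.0146 and missed the fold threshold at -0.99 ± 0.24. Over the same comparison the summed FPKM of 6 B-cell precursor markers was 1220 to 1342 in untreated and 127 to 134 in treated Reh, that of 4 germinal centre markers 195 to 214 and 76.6 to 79.8, and that of 6 myeloid markers 31.5 to 37.3 and 11.4 to 15.5. The lower precursor sum came mostly from RAG1, IGLL1, RAG2 and ERG. RAG1 measured 435 and 384 FPKM in untreated and 5.09 and 11.9 in treated Reh. IGLL1 measured 513 and 472 against 39.9 and 69.7. The lower germinal centre sum came from MME, at 123 and 118 FPKM in untreated and 7.72 and 11.1 in treated Reh, and CD38, at 51.6 and 48.5 against 10.0 and 11.6. The lower myeloid sum came mostly from MPO, at 24.8 and 32.0 against 6.44 and 5.00. Other members of the germinal centre and myeloid lists ran the other way. BCL6 measured 39.4 and 28.2 FPKM in untreated and 62.0 and 53.9 in treated Reh, and CD68 1.03 and 1.17 against 6.97 and 2.73. The sum of 5 Hodgkin markers was 15.5 to 16.7 in untreated and 51.4 to 60.7 in treated Reh, made up of FSCN1, TRAF1 and CSF1R, while TNFRSF8 stayed under 0.1 FPKM and CCL17 was listed at 0 in all 4 libraries. The sum of 7 B-lineage markers was 924 to 1013 and 1091 to 1344, within which CD79A measured 336 and 429 FPKM in untreated and 947 and 1102 in treated Reh, while CD79B measured 394 and 414 against 39.0 and 86.2, PAX5 64.1 and 52.5 against 11.3 and 17.4, and BLNK 67.4 and 63.0 against 1.69 and 1.90. Their part in the ligand values was not tested.

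The PD-1 ligands and the B7 pair were not called under PMA. The differences were 0.14 for CD274 (95% interval -0.44 to 0.71, limma adjusted p = 0.764), -0.21 for PDCD1LG2 (-0.94 to 0.51, adjusted p = 0.69), -0.11 for CD80 (-0.80 to 0.58, adjusted p = 0.873) and 0.02 for CD86 (-0.48 to 0.52, adjusted p = 1). All 4 stayed under 0.4 FPKM with or without PMA, and each was called higher in all 3 cHL lines than in treated Reh. Of the 10 genes, 8 were called between L428 and treated Reh, 9 between L1236 and treated Reh and 7 between KM-H2 and treated Reh, where 37%, 35.5% and 39.9% of all genes tested were. For LGALS1, in contrast, treated Reh was not called different from any cHL line, with L428 higher by 0.97 ± 0.66 (adjusted p = 0.258), L1236 lower at -0.37 ± 0.66 (adjusted p = 0.691) and KM-H2 higher by 1.55 ± 0.66 (adjusted p = 0.077). ICOSLG was lower in each cHL line than in treated Reh, at -3.99 in L428, -4.41 in L1236 and -1.49 in KM-H2, all called.

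Several of the PMA calls depended on the kind of library or on a single library. With the kind of library as a covariate, estimated from the cHL lines that hold both kinds, ICOSLG (1.66, limma adjusted p = 0.00828), LGALS1 (3.03, adjusted p = 0.0381), CD58 (-1.45, adjusted p = 0.00802) and TNFRSF14 (-1.64, adjusted p = 0.00439) were called, LGALS9 was not (-1.24, adjusted p = 0.0659), and CD200 was (-1.39, adjusted p = 0.00506). In that fit CD80 was at -0.73 (95% interval -1.24 to -0.22, adjusted p = 0.0449) and PDCD1LG2 at -0.76 (-1.46 to -0.05, adjusted p = 0.109), both under the fold threshold and in genes that treated Reh lists at 0. The covariate follows SNORD95 alone. It puts library 1 of KM-H2, with RPS27 at 7920 FPKM, in 1 kind with the treated Reh libraries, where RPS27 was 0.751 and 0.357 FPKM. CD58 lost its call without library 1 of Reh (-0.97, adjusted p = 0.0777) or of treated Reh (-0.91, adjusted p = 0.0724). LGALS1 lost it without library 1 of Reh (2.84, adjusted p = 0.0527) or library 0 of treated Reh (2.30, adjusted p = 0.0516), and LGALS9 without library 1 of Reh (-1.59, adjusted p = 0.0546) or of treated Reh (-1.21, adjusted p = 0.0629). CD200 gained a call without library 1 of Reh (-1.11, adjusted p = 0.0467). ICOSLG and TNFRSF14 were called in each of these fits. Where a library was left out, the remaining one of that condition was assumed to vary like the libraries of the other conditions.

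**Figure D3:**
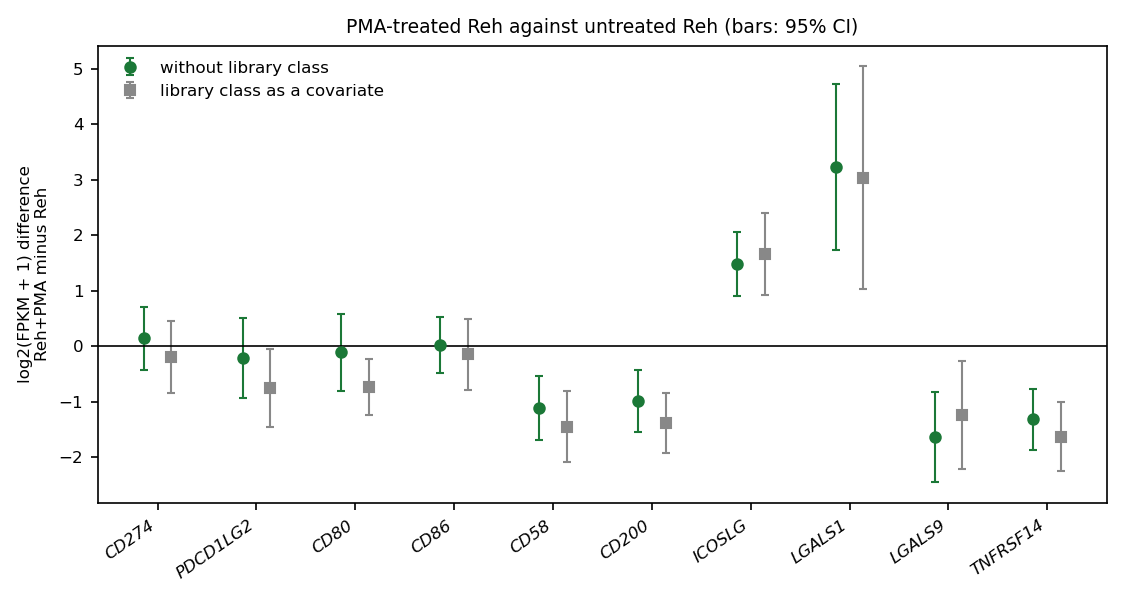
Difference in log2(FPKM + 1) between PMA-treated and untreated Reh on the vertical axis, for the 10 ligand genes on the horizontal axis, with 95% confidence intervals. Circles are the fit without, and squares the fit with, the kind of library (SNORD95 at 0 or above 0) as a covariate. ICOSLG and LGALS1 lie above 0 in both fits, and CD58, CD200, LGALS9 and TNFRSF14 below 0, while the intervals of CD80 and PDCD1LG2 reach 0 without the covariate and lie below it with it.

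The control lines differed from each other in 7 of the 10 genes. Namalwa was called higher than Reh in CD80 and CD86, given above, where 7.5% of all genes tested were called higher. It was called lower in CD58 (-2.88, limma adjusted p = 3.24e-05), CD200 (-3.34, adjusted p = 1.01e-05), LGALS1 (-3.42 ± 0.66, adjusted p = 0.00445), LGALS9 (-3.88, adjusted p = 4.4e-05) and TNFRSF14 (-1.13, adjusted p = 0.00791), where 11.5% of all genes were called lower. The TNFRSF14 call was lost without library 1 of Reh (-1.05, adjusted p = 0.0638) and under quantile normalization (-0.99), and the LGALS1 call in the 7 libraries with SNORD95 at 0 (adjusted p = 0.0676) and when only these 2 conditions were fitted (adjusted p = 0.0618). Over all 15 pairs of conditions, 111 of the 150 differences in the 10 genes were called, where 29.6% of all differences tested were.

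The levels of each gene could be put in order, with the neighbours in that order tested. For CD274 the order was L1236, L428, KM-H2, treated Reh, Reh and Namalwa, and the steps below treated Reh had adjusted p of 0.764 and 0.959 in limma. For LGALS1 it was KM-H2, L428, treated Reh, L1236, Reh and Namalwa, of which the neighbours among the highest 4 had adjusted p between 0.258 and 0.691. For CD58, L1236 and L428 (0.55, adjusted p = 0.14) and KM-H2 and treated Reh (0.13, adjusted p = 0.689) were not told apart. For ICOSLG, Reh and KM-H2 (0.01, adjusted p = 0.991) and KM-H2 and Namalwa (0.62, adjusted p = 0.0811) were not, and for CD200 neither were L428, KM-H2 and treated Reh. For TNFRSF14, L1236, KM-H2, L428 and Reh followed each other with neighbours that had adjusted p between 0.0967 and 0.975.

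Genes around CD274 and PDCD1LG2 on 9p24 were examined because the ligand pair lies within a region that is often gained in the disease. The table held 19 neighbours, of which 15 were tested. Higher calls numbered 7 in L428, 9 in L1236 and 4 in KM-H2, and lower calls 1, 0 and 0, where 16.2%, 15.7% and 16.8% of all genes tested were called higher and 13.8%, 13.3% and 13.5% lower. The 4 of 15 in KM-H2 is not far from that share. Their median log2 difference was 0.94 in L428, 1.19 in L1236 and 0.77 in KM-H2, below those of the ligand pair. JAK2, a kinase through which the interferon gamma receptor signals, measured 52.4 and 53.1 FPKM in L1236, 18.1 and 28.4 in L428 and 5.84 and 4.99 in KM-H2, against 4.37 and 5.06 in Reh and 1.93 and 1.06 in Namalwa. It was higher by 3.84 ± 0.23 in L1236 (limma adjusted p = 1.3e-06) and 2.66 ± 0.23 in L428 (adjusted p = 1.49e-05), and was not called in KM-H2. PLGRKT, the nearest of these genes upstream of CD274, was called in all 3 lines, by 2.23, 2.64 and 2.36 in L428, L1236 and KM-H2. INSL6, which overlaps JAK2 in the annotation, was called higher in KM-H2 (2.76 ± 0.15), where it measured 7.42 and 4.94 FPKM, and was listed at 0 in all L428 and L1236 libraries. It passed the filter only through the KM-H2 libraries, so its call, which is among the higher calls of KM-H2, is a description. RLN2 passed the filter only through library 1 of L428 (1.845 FPKM) and library 1 of KM-H2 (1.121 FPKM), so the same limit holds for it. DNA copy number was not measured in these files.

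**Figure D4:**
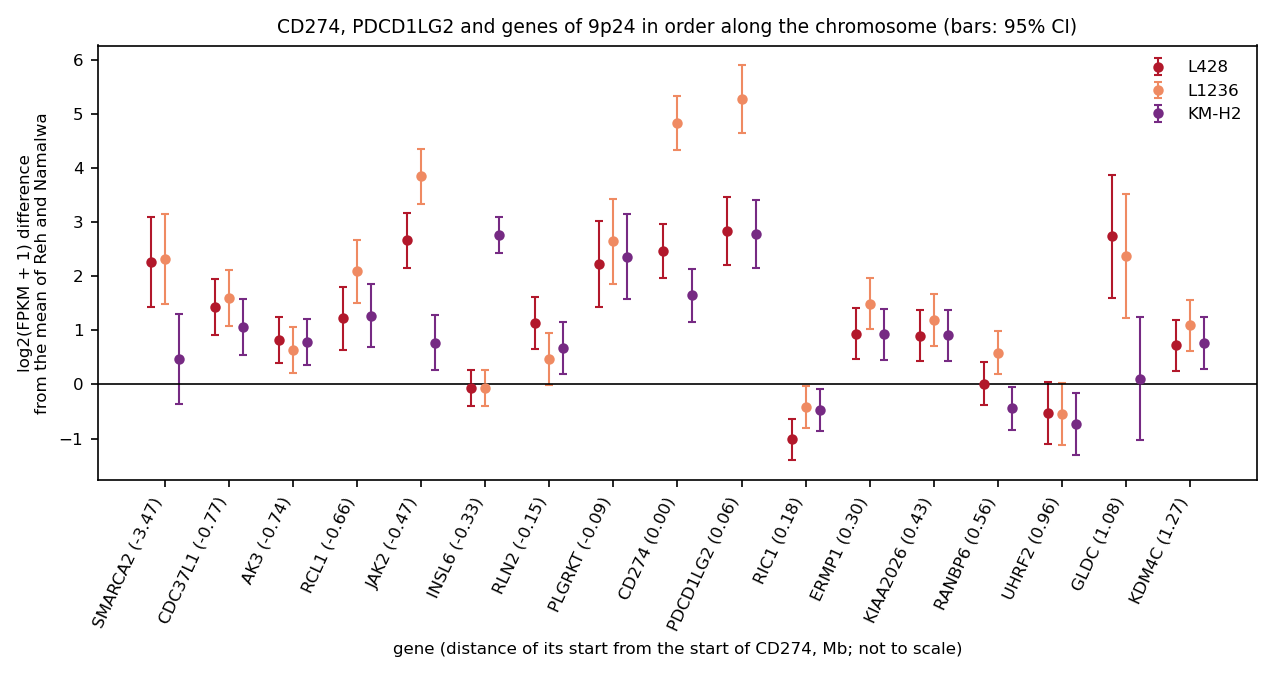
Difference in log2(FPKM + 1) of each cHL line from the mean of Reh and Namalwa on the vertical axis, with 95% confidence intervals, for CD274, PDCD1LG2 and the tested 9p24 genes in chromosomal order on the horizontal axis; the distance of each start from that of CD274, in Mb, stands in parentheses. JAK2, CD274 and PDCD1LG2 are highest in L1236, and PLGRKT is above 0 in all 3 lines.

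Among the receptors and partners of the ligand genes, many of which are T cell genes, 13 were in the table and 9 were tested. Of these, 4 were called higher in each cHL line, with 1 lower in L428, 0 in L1236 and 1 in KM-H2, where 16.2%, 15.7% and 16.8% of all genes were called higher and 13.8%, 13.3% and 13.5% lower. CTLA4 was listed at 0 in all 12 libraries, while ICOS and CD28 stayed under 0.2 FPKM. LTA (lymphotoxin alpha, a ligand of TNFRSF14) was higher by 3.16 in L428, 4.90 in L1236 and 3.90 in KM-H2, and TNFSF14 (LIGHT, another ligand of TNFRSF14) by 2.67, 2.59 and 2.06. CD200R1, the receptor of CD200, was higher by 2.62, 3.07 and 1.52, and CD44, a surface protein bound by galectin-9, by 2.76, 4.73 and 3.27. PTPRC (CD45), a galectin-1 partner, was lower in L428 (-3.55) and KM-H2 (-4.23), and was not called in L1236. Under PMA 3 partners were called higher and 0 lower, where 10.5% and 11.8% of all genes were. They were LTA (3.31), HAVCR2 (TIM-3, 3.01) and PDCD1 itself, which was listed at 0 in both Reh libraries and measured 7.08 and 2.56 FPKM after PMA (2.42 ± 0.30, limma adjusted p = 0.000513). PDCD1 and HAVCR2 passed the filter only through the treated Reh libraries, and CD200R1, CD44 and TNFSF14 only through the cHL libraries, so these 5 of the 9 entered the test only because of the group in which they were high, and their calls are a description.

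The shares of all genes called higher or lower in each comparison, given above, are the background for the lists of other ligands too. Of 17 further checkpoint ligands 9 were tested. In L428, 4 were called higher and 0 lower, led by LGALS3 (galectin-3, 4.77), with HLA-E, a ligand of natural killer cell receptors, at 1.54. CD47, the signal that restrains phagocytosis, was among them at 1.24. LGALS3 and IDO1, both among these calls, passed the filter only through cHL libraries, so their calls are a description. In L1236, 0 were called higher and 1 lower, CD47 (-1.01), in the direction opposite to L428. In KM-H2, 3 were called higher and 3 lower, led by CD276 (B7-H3, 4.40), which measured 20.1 and 20.3 FPKM in KM-H2 and was listed at 0 in Reh, Namalwa, L428 and L1236, so that it passed the filter only through KM-H2. Its call is a description, as is that of LGALS3 (1.01), another of the higher calls. CD47 was among the lower calls of KM-H2 (-1.39). Under PMA 1 was called higher, HLA-E (2.05), and 4 lower, led by BTN3A1 (-2.35). Among 14 other costimulatory and adhesion genes 12 were tested, with 4 higher and 5 lower in L428, 4 higher and 7 lower in L1236, and 5 higher and 6 lower in KM-H2. CD40, whose engagement activates B cells, rose in all 3 lines (1.61, 4.20 and 2.84) and under PMA (3.51), and ICAM1, the ligand of LFA-1, did so too (3.71, 3.99 and 4.97, and 2.12 under PMA). SLAMF6 was called lower in all 3 lines (-2.95, -2.73 and -2.95), but it was close to absent from Reh and stood between 55.4 and 57.6 FPKM in Namalwa. SLAMF6 and LY9 passed the filter only through the Namalwa libraries, so any call of these genes is a description. Under PMA 3 of these 12 were called higher and 1 lower.

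A list of 21 genes of interferon, JAK-STAT, NF-kappaB and AP-1 signalling, receptors, kinases and an early response factor (EGR1) among them, was also tested, and all of them passed the filter. In L428, 12 were called higher and 1 lower, in L1236 12 and 1, and in KM-H2 13 and 1, where 16.2%, 15.7% and 16.8% of all genes were called higher and 13.8%, 13.3% and 13.5% lower, with median log2 differences of 1.61, 1.16 and 1.24. BATF3, an AP-1 family factor, was higher by 6.03, 6.85 and 3.98. JUNB was higher by 2.90, 2.72 and 3.57, and over the 5 line means it was the only gene of the list called (3.06 ± 0.34, limma adjusted p = 0.0427). That call was lost on leaving out L428, L1236, KM-H2 or Reh, since 0 genes were then called. Under PMA 8 of the 21 were called higher and 2 lower, where 10.5% and 11.8% of all genes were. EGR1 (6.01), FOS (4.69) and JUNB (3.34), early response genes of protein kinase C signalling, rose, while IRF1 (-2.08) and STAT5A (-1.28) fell. CD274 stayed between 0.0978 and 0.348 FPKM in the Reh libraries, treated or not, and was not called under PMA. Any link between its level, its motif matches and the genes of this list was not tested.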

How the data were processed

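RNA-seq had been made by the authors in duplicate from total RNA of 5 cell lines and of PMA-treated Reh (TruSeq Stranded Total RNA with Ribo-Zero). The submitters' processing notes name TopHat2 2.0.11, hg19, Cuffnorm 2.2.1 and bedtools. The deposited values are FPKM per gene. The annotation, the Cuffnorm mode and the strand setting are not given in the sources used here. The columns carry suffixes 0 and 1 that the labels do not tie to a replicate number, so they were assigned to conditions only.

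Genes with at least 1 FPKM in at least 2 libraries were kept. limma 3.58.1 (R 4.3.3), with a trended prior, was fitted to log2(FPKM + 1) for 6 condition means, and Benjamini-Hochberg adjustment ran over all genes tested. The cHL lines were also compared with the control lines over 5 line means. The scripts were tested on simulated data. Counts and depth were not used, as FPKM hold neither. Alternatives were a pseudocount of 0.1, other filters, median-ratio and quantile scaling, the suffix as a block, leaving out each library or line, and, chosen after seeing the data, the kind of library as a covariate and the 7 libraries with SNORD95 at 0. The ligand genes and the gene lists were chosen with earlier results of these data known. The genes named beyond the ligands are, per list and comparison, mainly those with the largest called differences, and others were picked after their values were seen. Motifs were searched in RefSeq promoter windows located uniquely in GRCh37.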

Additional observations from a re-analysis of the deposited data

Results flagged for a closer look

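The difference from the controls was not the same in the 3 cHL lines for 9 of the 10 ligand genes: in each of these at least 1 pair of cHL lines was called in limma on log2(FPKM + 1), with Benjamini-Hochberg adjustment over all genes, as it was in 43.6% of all genes tested. The lines share their controls, so the difference between lines is the test. KM-H2 minus L1236 was -3.19 for CD274 (adjusted p = 1.25e-05), -2.50 for PDCD1LG2 (adjusted p = 0.000277), -2.57 for CD80 (adjusted p = 0.000172), -3.26 for CD86 (adjusted p = 4.58e-06) and -2.60 for CD58 (adjusted p = 4.65e-05). LGALS9 had the widest such gap, at -6.07 (adjusted p = 1.83e-06). In the other direction, KM-H2 exceeded L1236 by 2.92 in ICOSLG (adjusted p = 2.29e-05) and by 1.92 in LGALS1 (adjusted p = 0.0488). For CD200 the widest gap was L1236 minus L428, at -1.27 (adjusted p = 0.00383). TNFRSF14 was the gene with no called pair. Outlying libraries could not be tested for, as each condition has 2.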

How the results depend on the processing

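No ligand gene reversed its direction where it was called. Over the 5 line means, genes called fell from 80 to 11 with no filter and to 5 in the libraries with SNORD95 at 0, were 3597 with duplicate libraries as replicates, and ranged from 0 to 183 on leaving out a line (183 without Namalwa and 0 without L428, L1236, KM-H2 or Reh). The ligand genes called there rose from 0 to 8 with duplicate libraries as replicates. Under PMA the ligand genes called fell from 5 to 3 when only the conditions compared were fitted, and on leaving out a library they ranged from 3 to 5 and all genes called from 2082 to 3363 (2082 without library 0 of treated Reh, 2168 without library 0 of Reh). In that fit of the compared conditions LGALS1 (adjusted p = 0.067) and LGALS9 (adjusted p = 0.0505) lost their calls in limma, as did LGALS1 between Namalwa and Reh (adjusted p = 0.0618). A pseudocount of 0.1 added calls of CD200 in L428 (2.24) and KM-H2 (1.99) and, under PMA, of CD200 (-1.13) and PDCD1LG2 (-1.37). Median-ratio scaling added CD200 under PMA (-1.01) and quantile normalization dropped TNFRSF14 between Namalwa and Reh (-0.99). The suffix as a replicate block changed none of 50 calls of the ligand genes in the 5 main comparisons and left 110 rather than 111 of the 150 differences between pairs of conditions called: 6 of 15 correlations of same-numbered deviations were over 0.1, among them all 3 between cHL lines (0.301 to 0.681), in which suffix 1 is the library with SNORD95 above 0, so the numbers mark the kind of library there and were not used as a pairing of all conditions. Depth is unknown, so differences among genes under 1 FPKM cannot be judged.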

Other observations

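The genes whose log2(FPKM + 1) followed the ligand genes most closely over the 12 libraries are given as a description. The libraries are duplicates of 6 conditions and no test was made. CD274 was followed by IL6 (r = 0.996), TNFRSF11A (0.989) and FBXO32 (0.981), and PDCD1LG2 by LINC01268, CASQ1 and SNPH (0.983 to 0.987). CD80 was followed by DENND4A and TMEM198 (both 0.989), and CD86 by TMEM198 (0.985) and CAMKMT (0.983), with CD80 itself next at 0.98. CD58 had NPEPL1 (0.95), CD200 had APOBEC3H (0.957) and ICOSLG had INF2 (0.971). LGALS9 had LOC102723701 (0.981), and TNFRSF14 had SLC11A2 (0.989) and USP18 (0.983).

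Among the ligand genes, CD80 and CD86 ran together at r = 0.98 over the 12 libraries, whereas ICOSLG ran against both, at -0.90 with CD80 and -0.91 with CD86. LGALS9 had r of -0.02 with CD80, 0.08 with CD86, 0.39 with CD274, 0.27 with PDCD1LG2 and -0.20 with ICOSLG.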
